A study of Mus musculus with 105 samples.

Results

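Liver tumours of SKO mice, which lack the tyrosine phosphatase SHP2 (labelled Shp2 KO; the gene is Ptpn11), were compared with liver tumours of wild-type (WT) mice across all 12966 genes measured. The comparison holds 8 of the 105 libraries of the series, 4 from SKO tumours and 4 from WT tumours, chosen by genotype, age and tissue as the labels give them. Every mouse had been treated with diethylnitrosamine (DEN), a carcinogen that hepatocytes activate into a DNA-alkylating agent, and these tumours were sampled at 8 months. Beside them stand 4 libraries each of tumours from IKO mice (labelled Ikk KO) and of SKO and WT non-tumour liver, all at 8 months. So do 4 each of SKO and WT liver at 1, 3 and 5 months. All these libraries, and the 8 compared, were DEN-treated and carry the title prefix grp1, called sequencing group 1 below. The titles do not say what the prefix stands for. IKO non-tumour liver at 8 months and IKO liver at 1, 3 and 5 months, of the same treatment and sequencing group, entered some fits only to estimate the spread. The series title places each deletion in hepatocytes, so other cell types of an SKO tumour should keep Ptpn11, and the labels used here name no Cre driver, strain or sex. Replicates are numbered as biological, but nothing ties each one to its own animal, so p-values measure the spread between libraries.

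SHP2 binds to phosphorylated receptors and to adaptors such as GAB1 and GRB2, and its activity is needed to pass growth factor signals through RAS to the kinases RAF, MEK and ERK. In liver it works below the receptors for hepatocyte growth factor, epidermal growth factor and FGF19, and it restrains signals through STAT3. SHP2 promotes growth in many tissues, yet mice that lack it in hepatocytes are known for liver inflammation and for more tumours after DEN.

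RNA was sequenced as 3′-end tags with MAPS, and levels below are normalised reads, meaning reads divided by the size factor of the library. The libraries of SKO tumours held 4906429 to 5642179 reads and those of WT tumours 5805949 to 8508815, so that every SKO tumour library was shallower than every WT one (exact two-sided permutation test, p = 0.0286, the smallest that 4 against 4 can give). Alb, the transcript of serum albumin, took 11.6% to 15.3% of reads in SKO tumours and 13.998% to 15.6% in WT tumours, and all 6 hepatocyte markers were detected. Adipoq, the defining adipocyte marker, had 0 reads in all 8 tumours, and the list of pancreatic acinar markers was not measured. The Y-linked genes Ddx3y and Eif2s3y had reads in all 8 tumours. Within a group the median standard deviation of a gene was 0.231 on the log2 scale in SKO tumours and 0.242 in WT tumours.

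Between SKO and WT tumours 58 of 12966 genes (0.447%) passed an adjusted p of 0.05 in limma's moderated test, 36 higher (0.278%) and 22 lower (0.17%) in SKO tumours. Of these, 24 rose and 16 fell by at least 2-fold on the deposited log2 scale, which compresses low levels and so understates changes of genes with few reads. At an unadjusted p below 0.05 there were 1420 genes (10.95%). Hbb-b1 and Hbb-bs, rows with identical values, are counted separately here and in the counts of the 58 genes below. The 4 SKO and 4 WT values of all 58 genes did not overlap, against 5.71% of all genes, 2.82% higher and 2.89% lower. The calls came from these same libraries, and a small p favours groups that lie apart. The contrast is therefore no separate support for the calls. The count depended on single libraries: it was 23, 22, 36 and 55 without SKO tumour replicates 1 to 4 in turn, and 33, 26, 25 and 64 without WT tumour replicates 1 to 4. Called in all 8 of those fits were 18 genes, which were Ptpn11, Mrps17, Pebp1, Adamts13, Cacfd1, Dnah2, Gm4841, Gucy2c, Cd5l, Tmem170, Sntb2, Wdfy1, AB124611, F830016B08Rik, Serpina12, Hddc3, Pgap6 and Ide.

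**Figure D1:**
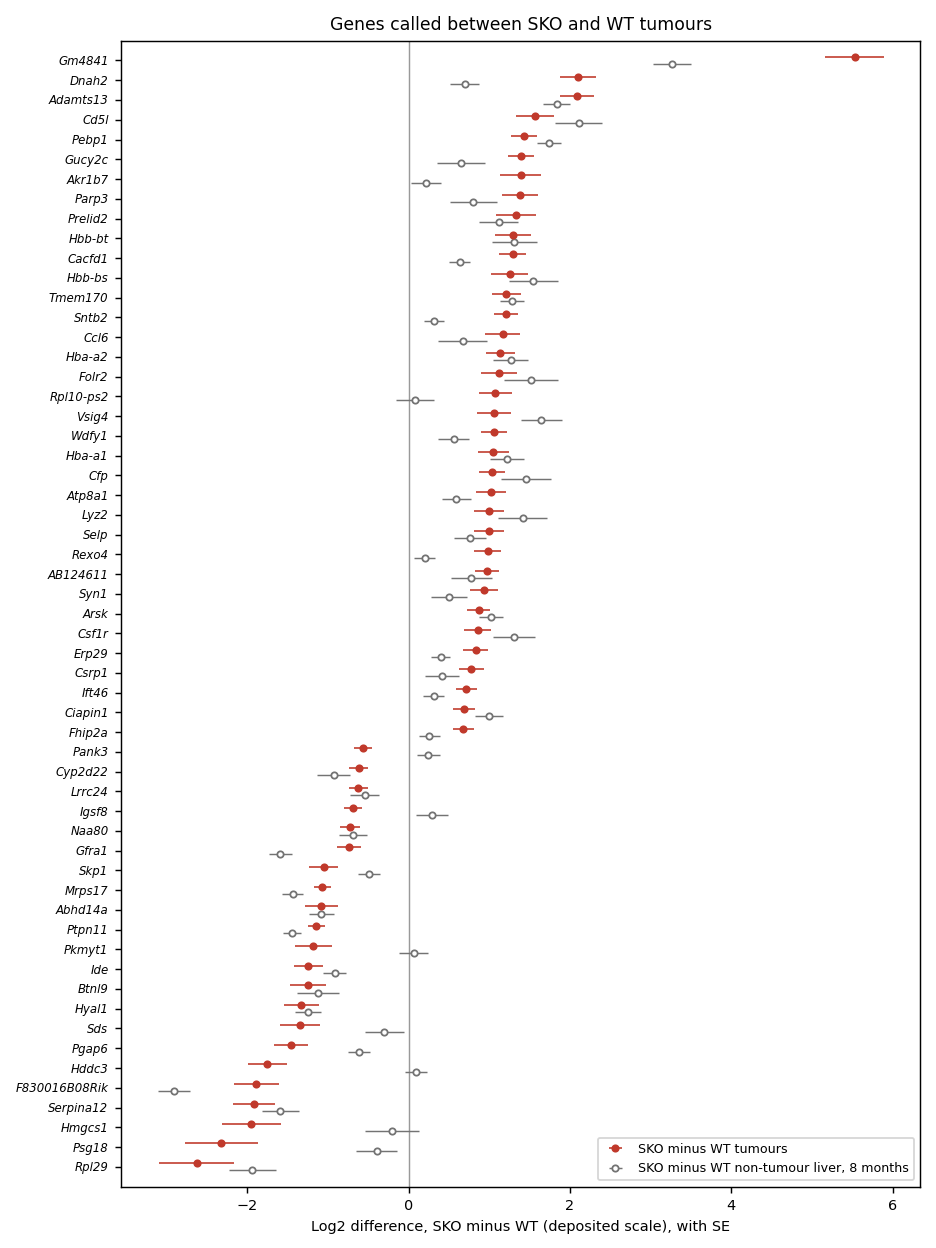
Log2 difference, SKO minus WT, with its standard error for the called genes in tumours (filled) and in non-tumour liver at 8 months (open), from 4 libraries per group. Gm4841 stands apart at 5.53, and Rpl29 has the lowest value at −2.63; Hbb-b1 repeats the values of Hbb-bs and is left out.

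Ptpn11, the targeted gene, had 147, 143, 155 and 172 normalised reads in the 4 SKO tumours and 371, 361, 404 and 357 in the 4 WT tumours. All SKO tumours lay below all WT tumours, and the log2 difference was −1.14 ± 0.11 (adjusted p = 0.000316). IKO tumours held 394, 451, 390.4 and 369.8, among or above the WT values. In non-tumour liver the values were 129, 110.05, 159 and 145 in SKO and 402, 424, 433 and 386 in WT. The residual level in SKO tumours, 154 ± 12.97 (SD, n = 4), was close to that of SKO non-tumour liver, 136 ± 20.9. In earlier liver the groups did not overlap at 1 and 5 months, while at 3 months the library labelled SKO replicate 2 held 375, among the WT values of 350.1 to 388. Reads from 3′ ends show that the transcript fell and say nothing of the protein, and what the remaining reads come from, other cell types or hepatocytes, was not tested.

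The locus of Ptpn11 lies on chromosome 5 (GRCm38, chr5:121130533-121191397, minus strand). Within 10 Mb of it, 4 of 195 other tested genes were called in tumours (2.05%, against 0.447% of all genes), and 10 (5.13%, against 3.86% of all genes) in non-tumour liver. Pebp1 encodes Raf kinase inhibitor protein, which holds back the signal that passes to MEK, and lies at chr5:117282654-117287625, with its start 3.85 Mb from that of Ptpn11. It had 869.99, 616, 992 and 668 normalised reads in SKO tumours and 299, 253, 247 and 279.9 in WT tumours, a log2 difference of 1.43 ± 0.16 (adjusted p = 0.000736). All SKO tumours lay above all WT tumours, and also above the IKO tumours, which held 378, 314, 462 and 414. Both genotypes held less Pebp1 in tumours than in non-tumour liver, where SKO had 2428, 2478, 1831 and 2886 and WT 724, 821, 628 and 611. Mrps17, a protein of the small mitochondrial ribosome subunit at chr5:129715497-129722556, had 155, 167, 177 and 149 in SKO tumours and 354, 378, 399 and 343 in WT tumours (−1.07 ± 0.10, adjusted p = 0.000344). Erp29, a chaperone of the endoplasmic reticulum whose start lies 0.298 Mb from that of Ptpn11, had 283, 244, 259.6 and 277 in SKO tumours and 127, 180.2, 140.1 and 109.8 in WT tumours (0.83 ± 0.15, adjusted p = 0.03). Sds, serine dehydratase, 0.654 Mb on the other side, had 136, 92.9, 48.8 and 81.6 in SKO tumours and 259, 309, 195 and 277 in WT tumours (−1.35 ± 0.24, adjusted p = 0.03). Pebp1 and Mrps17 were called in all 8 fits without 1 library. Erp29 was called in 1 and Sds in 2 of them, with adjusted p up to 0.108 without SKO tumour replicate 1 and 0.0941 without WT tumour replicate 2.

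Pebp1, Mrps17 and Erp29 lay apart in the same direction at every age sampled. At 1 month Pebp1 had 4351 to 5812 in SKO and 415 to 804 in WT, at 3 months 2596 to 3849.5 in SKO and 419.9 to 1076 in WT, and at 5 months 3610.5 to 4082 in SKO and 814 to 952 in WT. Mrps17 had 141 to 194 in SKO and 306 to 467 in WT at 1 month, and 109 to 149 in SKO and 366 to 534 in WT at 5 months. The SKO 3-month replicate 2, with Ptpn11 at the WT level, held 2596 reads of Pebp1 and 162 of Mrps17, both on the SKO side of every WT value. Erp29 had 145 to 243 in SKO and 75.6 to 109.6 in WT at 1 month, 98.9 to 171 in SKO and 41.2 to 82.8 in WT at 3 months, and 90.3 to 128 in SKO and 49.6 to 79.2 in WT at 5 months. Sds overlapped between genotypes at each of the earlier ages.

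**Figure D2:**
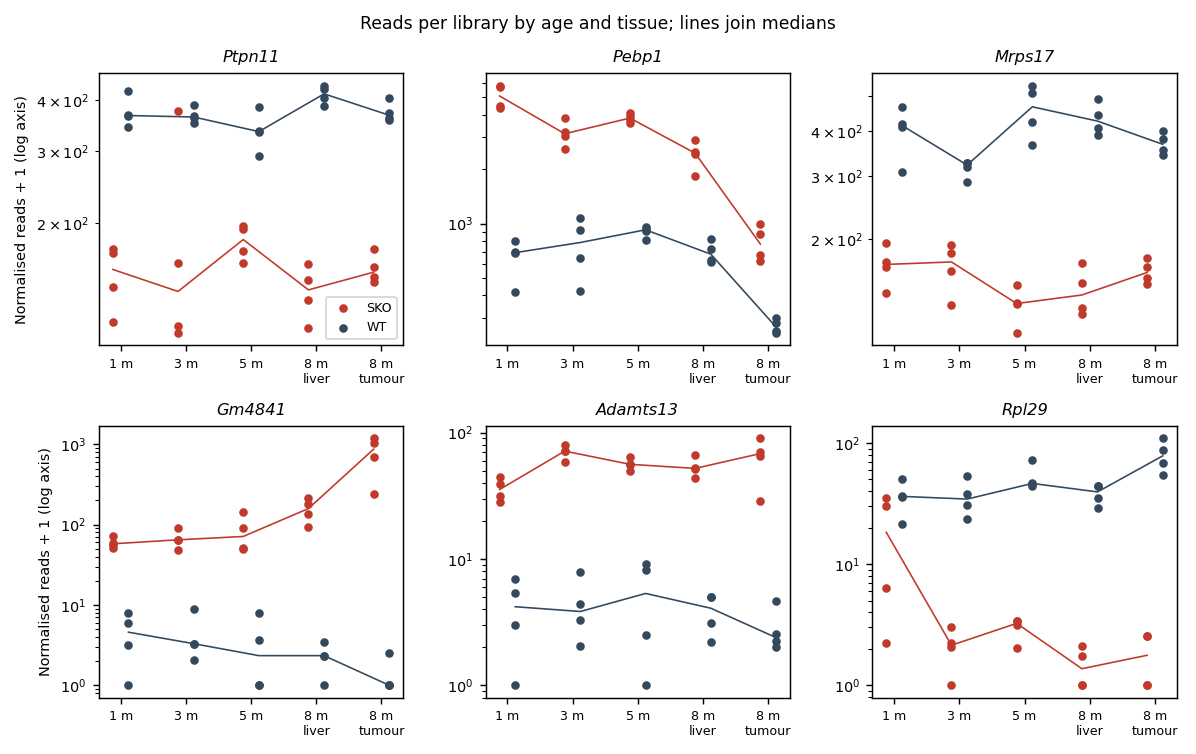
Normalised reads plus 1 (log axis) of 6 called genes in each SKO and WT library by age and tissue, 4 libraries per group, with lines through the medians. Gm4841 and Adamts13 in SKO lie above WT at every stage, Mrps17 lies below it, and 1 SKO library at 3 months holds Ptpn11 at the WT level.

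The largest rise was that of Gm4841, a predicted gene on chromosome 18 (chr18:60268305-60273272) that was singled out after its values were seen. It had 242, 689.9, 1202 and 1051 normalised reads in SKO tumours, against 1.53, 0, 0 and 0 in WT tumours, a log2 difference of 5.53 ± 0.37 (adjusted p = 6.29e-06). Over the 4 libraries of a group these were 2213 reads in SKO tumours and 1 read in WT tumours, a ratio of 2610 whose 95% interval for counting error begins at 468. SKO non-tumour liver held 179, 136, 212 and 93.5 and WT non-tumour liver 0, 2.44, 1.34 and 1.34. The tumour difference exceeded the non-tumour one by 2.26 ± 0.46, which did not pass (adjusted p = 0.0759, unadjusted p = 5.44e-05).

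Among genes with a full name, Dnah2, a heavy chain of the dynein motor of cilia, had 30.98, 40.95, 60.6 and 67.7 in SKO tumours and 0, 2.002, 0 and 2.41 in WT tumours (2.100 ± 0.22, adjusted p = 0.000519). Its level in SKO non-tumour liver was lower, 9.91, 8.31, 4.403 and 2.23, with 1.06, 1.22, 0 and 0 in WT non-tumour liver. Adamts13, the protease that cleaves von Willebrand factor, had 64.6, 89.8, 69.8 and 27.7 in SKO tumours and 1.53, 1.001, 1.24 and 3.62 in WT tumours (2.09 ± 0.21, adjusted p = 0.000367). It is a case of low reads against near-zero, with 176 reads over the SKO tumours and 6 over the WT tumours. Gucy2c, the membrane receptor for guanylin, had 17.5, 29.9, 23.7 and 20.01 in SKO tumours and 1.53, 1.001, 0 and 1.21 in WT tumours (1.39 ± 0.16, adjusted p = 0.000736), and the ratio of 63 to 3 reads, scaled for depth, was 24.8 with a 95% counting interval of 8.10 to 123. IKO tumours also held Gucy2c, at 16.02, 23.1, 24.5 and 15.9.

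Akr1b7, an aldo-keto reductase, had 67.3, 94.5, 52.7 and 24.6 in SKO tumours and 7.67, 4.004, 12.4 and 14.5 in WT tumours (1.39 ± 0.26), and it was nearly silent in non-tumour liver of both genotypes, with at most 3.96 in SKO and 2.13 in WT. Parp3, a poly(ADP-ribose) polymerase of DNA break repair, had 803, 970.2, 831 and 936 in SKO tumours and 373, 250.3, 348 and 328 in WT tumours (1.38 ± 0.22, adjusted p = 0.0139). Prelid2, a protein of the PRELI family, had 136, 258, 188 and 195 in SKO tumours and 88.97, 63.1, 63.2 and 36.2 in WT tumours (1.33 ± 0.25). Wdfy1, an endosomal FYVE-domain protein, had 199, 172, 225 and 203 in SKO tumours and 72.1, 94.1, 99.2 and 67.5 in WT tumours (1.06 ± 0.16, adjusted p = 0.00897). Akr1b7 and Prelid2 were each called in 2 of the 8 fits without 1 library, with adjusted p up to 0.112 without SKO tumour replicate 1 and 0.102 without WT tumour replicate 3, and Parp3 in 6 of them, with 0.0551 without WT tumour replicate 2.

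**Figure D3:**
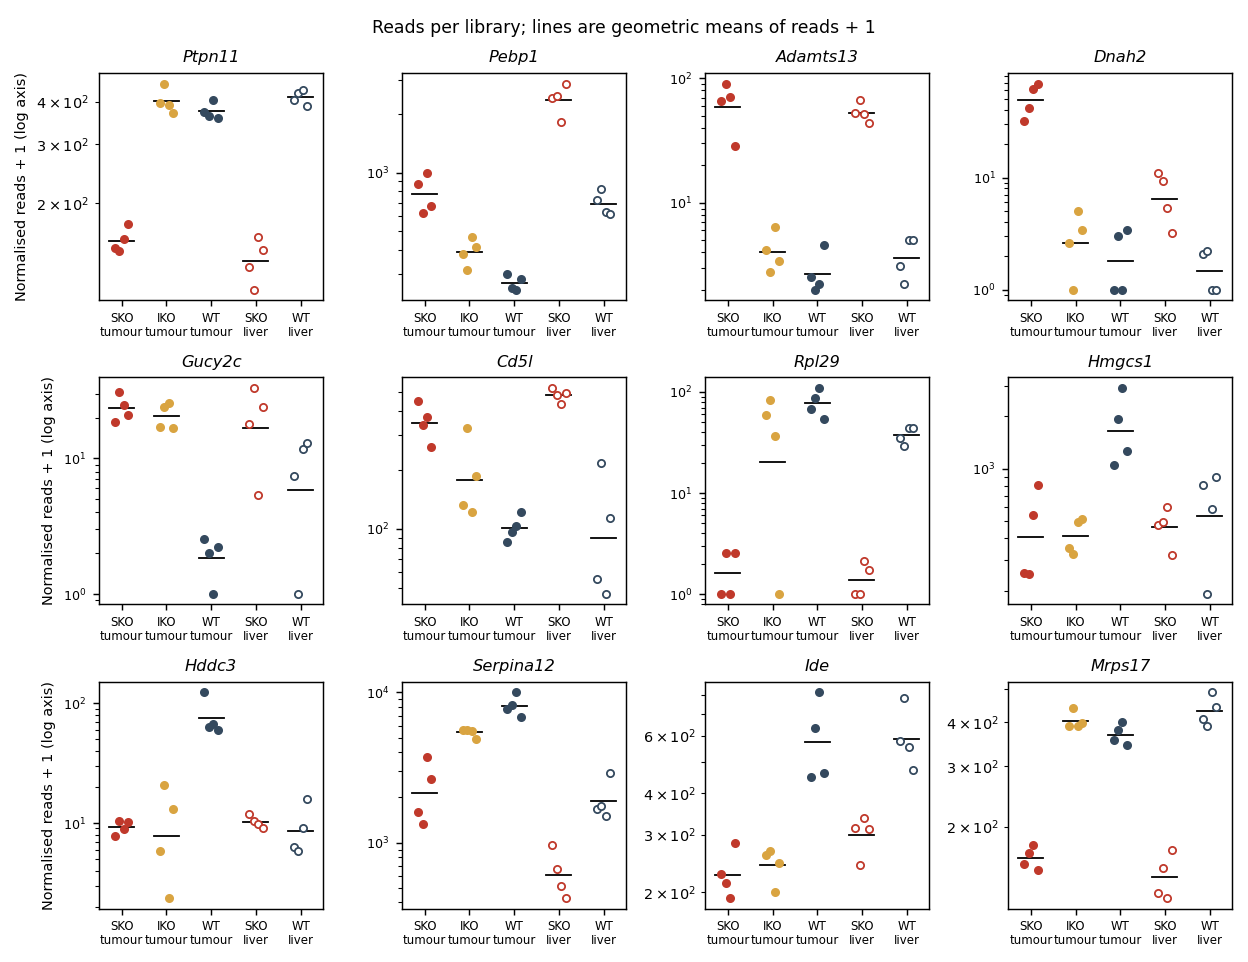
Normalised reads plus 1 (log axis) of 12 called genes in each library of SKO, IKO and WT tumours (filled) and of SKO and WT non-tumour liver (open), with lines at the geometric mean of 4 libraries. SKO and WT tumours do not overlap in any panel; IKO tumours lie near SKO tumours for Gucy2c, Hmgcs1, Hddc3 and Ide, and near WT tumours for Ptpn11 and Mrps17.

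The largest fall was that of Rpl29, a protein of the large ribosome subunit, which had 0, 1.57, 0 and 1.54 normalised reads in SKO tumours and 67.5, 87.1, 109 and 53.1 in WT tumours (−2.63 ± 0.47, adjusted p = 0.0279). There were 2 reads over the SKO tumours and 263 over the WT tumours, a WT over SKO ratio of 111, scaled for depth, with a 95% counting interval of 30.6 to 925. Non-tumour liver showed the same near-absence, with 0, 0, 1.101 and 0.742 in SKO and 34.1, 28.01, 42.9 and 42.9 in WT. At 1 month the SKO libraries were mixed, with 1.22, 5.32, 29.3 and 33.99, and at 3 and 5 months none exceeded 2.42. Of the 4 IKO tumours 1 also had 0 reads, beside 57.7, 81.7 and 35.4 in the others. Ribosomal protein genes have many processed copies, and how the reads of Rpl29 were divided among them is not given in the sources used here. Its call held in 2 of the 8 fits without 1 library, with adjusted p up to 0.102 without WT tumour replicate 3, and was lost with library weights and with limma-voom on recovered reads (adjusted p = 0.299).

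Psg18, a pregnancy-specific glycoprotein, had 0, 3.15, 7.91 and 0 in SKO tumours and 244, 71.1, 53.3 and 16.9 in WT tumours (−2.32 ± 0.45, adjusted p = 0.0383). It had 0 reads in all SKO and WT livers at 1, 3 and 5 months and in SKO non-tumour liver at 8 months, where WT held at most 9.38, and its WT tumour values spread widely. It was called in 1 of the 8 fits without 1 library, with adjusted p up to 0.135 without SKO tumour replicate 1. Serpina12 (vaspin), an adipokine of the serpin family, fell to 1593, 1331, 3741 and 2646 in SKO tumours, against 7735, 8221, 10083 and 6872 in WT tumours (−1.91 ± 0.26, adjusted p = 0.00431). SKO non-tumour liver held 957, 662, 511 and 426 and WT non-tumour liver 1679, 1743, 1509 and 2892, so the direction was shared and tumours of both genotypes held more. When all 15 groups estimated the spread, Serpina12 missed the threshold (adjusted p = 0.0743). Ide, the insulin-degrading enzyme, had 226, 213, 191 and 282 in SKO tumours and 449, 629.7, 813 and 462 in WT tumours (−1.24 ± 0.18, adjusted p = 0.00771). Pkmyt1, a kinase that holds CDK1 inactive before mitosis, had 52.5, 47.3, 81.7 and 78.5 in SKO tumours and 146, 261, 212 and 116 in WT tumours (−1.18 ± 0.23, adjusted p = 0.0361; called in 1 of the 8 fits without 1 library, adjusted p up to 0.139 without WT tumour replicate 3).

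Other falls came from genes of several roles. Skp1, a core subunit of SCF ubiquitin ligases, had 203, 106, 153 and 148 in SKO tumours and 265, 455, 353 and 303 in WT tumours (−1.05 ± 0.18). Btnl9, a butyrophilin-like membrane protein, had 6.73, 1.57, 13.2 and 1.54 in SKO tumours and 46.02, 29.03, 39.7 and 25.3 in WT tumours (−1.25 ± 0.22). Pgap6 had 128, 158, 69.8 and 78.5 in SKO tumours and 298, 452, 337 and 261 in WT tumours (−1.46 ± 0.21, adjusted p = 0.00771). Gfra1, a receptor for GDNF, fell (−0.74 ± 0.15), as did Igsf8 (−0.68 ± 0.11), Lrrc24 (−0.63 ± 0.12) and the pantothenate kinase Pank3 (−0.57 ± 0.11), which makes coenzyme A. Of these 7 genes Pgap6 alone was called in all 8 fits without 1 library; the others were called in 1 to 5, with adjusted p up to 0.0628 for Skp1, 0.102 for Btnl9, 0.155 for Gfra1 and 0.167 for Pank3 without WT tumour replicate 3, and 0.0652 for Igsf8 and 0.118 for Lrrc24 without SKO tumour replicate 1.

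Called genes lay close together on the chromosomes. Of 55 called genes with a GENCODE position, 22 (40%) had another called gene within 1 Mb, against 970 (7.56%) of the 12832 genes with a position. The 22 include the globin pairs Hba-a1 with Hba-a2 and Hbb-bs with Hbb-bt. They also include the overlapping genes Hyal1 and Naa80, and the targeted gene Ptpn11 with Sds and Erp29. The share without these was not computed. On chromosome 2, Rexo4 (chr2:26953563-26964386), Adamts13 (chr2:26973416-27009628) and Cacfd1 (chr2:27009926-27021089) are consecutive called genes and all 3 rose. Cacfd1, a flower-domain calcium channel protein, had 423, 691, 488 and 477 in SKO tumours and 219, 163, 226 and 171 in WT tumours (1.29 ± 0.16, adjusted p = 0.00229). Rexo4, an RNA exonuclease, had 164, 249, 157 and 145 in SKO tumours and 84.4, 75.1, 73.2 and 72.4 in WT tumours (0.98 ± 0.17, adjusted p = 0.0186; called in 4 of the 8 fits without 1 library, adjusted p up to 0.0628 without WT tumour replicate 3). Adamts13 ends just before Cacfd1 begins on the same strand, so reads that run past the end of Adamts13 could be counted for Cacfd1. Whether this occurred was not tested. Adamts13 had 176 reads over the SKO tumours and 6 over the WT tumours, and Cacfd1 had 1433 and 630.

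On chromosome 9, Rpl29 (chr9:106429454-106431568), Abhd14a (chr9:106440051-106447678) and Parp3 (chr9:106470322-106476949) lie together, and Rpl29 and Abhd14a fell while Parp3 rose. Abhd14a, an alpha/beta hydrolase, had 90.2, 118, 125 and 100.04 in SKO tumours and 229, 274, 252 and 275 in WT tumours (−1.08 ± 0.20). Hyal1 (chr9:107576927-107581710), a lysosomal hyaluronidase, had 56.6, 51.98, 71.2 and 50.8 in SKO tumours and 189, 201, 169.9 and 168 in WT tumours (−1.33 ± 0.21, adjusted p = 0.0142). Naa80 (chr9:107578887-107584050), which acetylates the end of actin, had 166, 142, 167 and 149 in SKO tumours and 272, 329, 260.4 and 245 in WT tumours (−0.73 ± 0.12). Hyal1 and Naa80 overlap on the plus strand, so their reads may not be separable. Abhd14a was called in none of the 8 fits without 1 library (adjusted p up to 0.125 without SKO tumour replicate 1), Hyal1 in 5 (up to 0.0552 without SKO tumour replicate 1) and Naa80 in 3 (up to 0.0726 without SKO tumour replicate 2).

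On chromosome 18, F830016B08Rik (chr18:60293380-60303016), next to Gm4841, fell while Gm4841 rose, and it too was named after its values were seen. It had 10.8, 4.73, 25.03 and 4.62 in SKO tumours and 118, 51.1, 105 and 103 in WT tumours (−1.89 ± 0.28, adjusted p = 0.00771). In SKO non-tumour liver it had 29.7, 16.6, 34.1 and 22.998, and in WT non-tumour liver 366, 391, 399 and 249. On chromosome 8 the syntrophin gene Sntb2 (chr8:106935750-107019714) had 131, 148, 121 and 115 in SKO tumours and 64.4, 40.04, 32.2 and 36.2 in WT tumours (1.204 ± 0.15, adjusted p = 0.00221). The processed pseudogene Rpl10-ps2, just upstream, rose as well (1.08 ± 0.21; called in 1 of the 8 fits without 1 library, adjusted p up to 0.129 without WT tumour replicate 3), from few reads and with a parent gene elsewhere whose reads it could share. On the X chromosome Syn1 (synapsin) and Cfp (properdin) lie close together and both rose.

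Globin transcripts rose in SKO tumours. Of 6 measured erythroid markers 4 rose and none fell (0.278% of all genes were called higher), all 6 had a positive difference, and the median log2 difference was 1.10, against −0.01 over all genes. Hbb-bs, a beta globin of adult mice, had 6235, 5278, 3082 and 3684 normalised reads in SKO tumours and 1344, 2063, 2112 and 1902 in WT tumours (1.25 ± 0.23, adjusted p = 0.03); the row named Hbb-b1 holds identical values. Its companion Hbb-bt had 668, 534, 429.5 and 379 in SKO tumours and 126, 257, 187 and 189 in WT tumours (1.29 ± 0.22). The alpha globins Hba-a1 and Hba-a2, whose coding sequences are nearly identical so that reads could be split between them, differed by 1.05 ± 0.19 and 1.14 ± 0.18. Hba-a1 had 2314, 2068, 1601 and 1449.7 in SKO tumours and 704, 987, 805 and 1002 in WT tumours. Alas2, the haem synthesis enzyme of red cell precursors, had 404, 334, 344 and 300.1 in SKO tumours and 357, 152, 182 and 229 in WT tumours (0.59 ± 0.24, adjusted p = 0.39, not called). The red cell anion exchanger Slc4a1 had 12.1, 6.3001, 17.1 and 6.16 in SKO tumours and 3.07, 0, 1.24 and 1.21 in WT tumours (0.79 ± 0.20, adjusted p = 0.137, not called).

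The summed level of the 6 erythroid markers was 6602 to 11239 normalised reads in SKO tumours, 4550 to 6329 in IKO tumours and 2996 to 4149 in WT tumours, and 8975 to 14977 in SKO and 4694 to 7291 in WT non-tumour liver. The 4 globin calls fell to 0 without SKO tumour replicate 1, to 0 without SKO tumour replicate 2 and to 0 without WT tumour replicate 3, to 1 without WT tumour replicate 1, to 2 without WT tumour replicate 2 and to 2 when all 15 groups estimated the spread, with every globin difference still positive; it was 1 when only the 8 libraries estimated the spread. In bulk tissue more cells of a type and more RNA per cell cannot be told apart, and the amount of blood left in the dissected tissue is not given in the sources used here.

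The globin promoters are shown because these genes moved together at 2 loci, on chromosomes 7 and 11. The windows run from 250 bases before to 50 bases after the annotated start (RefSeq, GRCm38.p6), 5′ to 3′ on the gene's strand. Capitals mark a TATA-type box, spelled CATATAA, and the CACC box of adult beta globin, spelled CCACACCC. Both strands were searched, and the motifs do not overlap.
Hbb-bs, chr7:103827879-103828178, minus strand: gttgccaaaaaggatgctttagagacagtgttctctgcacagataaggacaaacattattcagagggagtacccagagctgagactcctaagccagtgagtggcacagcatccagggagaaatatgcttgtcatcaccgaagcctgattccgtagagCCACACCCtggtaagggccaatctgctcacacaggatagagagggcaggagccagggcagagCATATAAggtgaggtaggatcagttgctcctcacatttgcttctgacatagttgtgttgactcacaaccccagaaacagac
Hba-a1, chr11:32283422-32283721, plus strand: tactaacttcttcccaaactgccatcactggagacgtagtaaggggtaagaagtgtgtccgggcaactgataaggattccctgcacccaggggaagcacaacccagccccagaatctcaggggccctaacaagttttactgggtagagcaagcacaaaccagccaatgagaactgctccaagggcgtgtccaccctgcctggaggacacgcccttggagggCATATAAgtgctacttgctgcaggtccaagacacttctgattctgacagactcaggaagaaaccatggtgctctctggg
CATATAA stood in both windows and in 760 of 32851 promoters of that length (2.31%), and CCACACCC stood in the Hbb-bs window and in 1170 (3.56%). These letters describe the windows and show nothing about binding in these tumours.

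Kupffer cell markers leaned the same way. Of 8 markers of these resident liver macrophages 2 rose and none fell (0.278% of all genes rose). All 8 had positive differences, 6 of 8 did not overlap between the groups (2.82% of all genes lay apart and higher), and the median was 0.76. Cd5l, an apoptosis inhibitor secreted by macrophages, had 446, 337, 369 and 262 in SKO tumours and 84.4, 95.1, 103 and 121 in WT tumours (1.56 ± 0.24, adjusted p = 0.00897). Vsig4, a complement receptor of Kupffer cells, had 599, 519.8, 474 and 500.2 in SKO tumours and 186, 147, 301 and 362 in WT tumours (1.06 ± 0.21, adjusted p = 0.0425). The lectin Clec4f, found on Kupffer cells alone in mice, had 471, 224, 379 and 268 in SKO tumours and 147, 107, 124 and 212 in WT tumours (1.04 ± 0.24, adjusted p = 0.0901, not called). Timd4, a receptor for dying cells, had 45.8, 55.1, 39.5 and 35.4 in SKO tumours and 13.8, 14.02, 28.5 and 12.1 in WT tumours (0.80 ± 0.18, adjusted p = 0.0907, not called). The complement C1q chains C1qa, C1qb and C1qc differed by 0.73 ± 0.18, 0.71 ± 0.16 and 0.50 ± 0.19, and the scavenger receptor Marco, with few reads, by 0.47 ± 0.28, and none of these was called.

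The summed Kupffer markers came to 3363 to 4293 normalised reads in SKO tumours, 2542 to 3340 in IKO tumours and 1817 to 2838 in WT tumours. Most of these reads came from the C1q chains, which were not called. Over the SKO tumours C1qb, C1qc and C1qa had 4952, 1640 and 813 reads, and Vsig4 had 1460. Over the WT tumours they had 3576, 1334 and 554, and Vsig4 had 811. The sum therefore does not by itself tell Kupffer cells from other macrophages. In non-tumour liver they came to 6178 to 6797 in SKO and 1744 to 4848 in WT, where WT replicate 2 was the highest, and 7 of 8 were called higher (1.98% of all genes were). The count in tumours was 1, Cd5l, in 7 of the 8 fits without 1 library, and 5 without WT tumour replicate 4, whose Vsig4 level of 362 was the highest of the WT tumours. Vsig4 reached an adjusted p of 0.138 without SKO tumour replicate 1 and 0.149 when only the 8 libraries estimated the spread, and was also lost with no trend, with library weights and with the replicate block.

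Recruited macrophage markers gave 1 rise among 13 and no fall (median 0.35; 0.278% of all genes rose). Lyz2, the lysozyme of macrophages and granulocytes, had 458, 398, 535 and 633 in SKO tumours and 219, 249, 188 and 302 in WT tumours (0.996 ± 0.18, adjusted p = 0.03). The summed level overlapped, with 2447 to 3280 in SKO tumours and 1650 to 5099 in WT tumours, in which Spp1 (osteopontin), a gene that tumour cells and bile duct cells also express, ranged from 641 to 3591. The called genes Csf1r, Folr2, Cfp, Ccl6 and Selp are in none of the lists; they were gathered here after their values were seen. Csf1r, the receptor that macrophages need for survival, had 846, 742, 821 and 883 in SKO tumours and 491, 319, 438 and 548 in WT tumours (0.86 ± 0.16, adjusted p = 0.0361). Folr2, the folate receptor of tissue macrophages, had 167, 97.7, 113 and 75.4 in SKO tumours and 16.9, 51.1, 38.4 and 53.1 in WT tumours (1.12 ± 0.22). Cfp, properdin, which stabilises the alternative complement convertase, had 395, 321, 361 and 336 in SKO tumours and 124, 164, 184 and 168 in WT tumours (1.03 ± 0.16, adjusted p = 0.0128). The chemokine Ccl6 had 225, 153, 128 and 105 in SKO tumours and 50.6, 58.1, 47.1 and 51.9 in WT tumours (1.17 ± 0.22), and Selp, the P-selectin of platelets and endothelium, had 75.4, 50.4, 36.9 and 44.6 in SKO tumours and 19.9, 9.01, 17.4 and 15.7 in WT tumours (0.99 ± 0.18).

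Calls among these genes were sensitive to single libraries. Of the 8 fits without 1 library, Cfp was called in 7, Lyz2 and Folr2 in 2 each, and Csf1r, Ccl6 and Selp in 1 each. Without SKO tumour replicate 1 the adjusted p was 0.0552 for Cfp, 0.122 for Csf1r, 0.135 for Folr2 and 0.0982 for Selp, and without WT tumour replicate 3 it was 0.112 for Ccl6 and 0.114 for Lyz2. Lists of other cell types held no call, though 2 of them had summed levels that lay higher in all SKO tumours. T and NK cell markers (8 measured, all 8 with positive differences) summed to 67.7 to 195 normalised reads in SKO tumours and 40.9 to 64.1 in WT tumours. Neutrophil markers (6) summed to 22.9 to 80.4 in SKO tumours and 16.1 to 20.02 in WT tumours. The part of these cells in the results above was not tested. For endothelium (14 measured) they were 3344 to 4238 in SKO and 3260 to 3841 in WT tumours, for stellate cells and fibroblasts (18) 5525 to 11890 in SKO and 6108 to 7699 in WT tumours, and for cholangiocytes (9) 6092 to 7043 in SKO and 4509 to 11105 in WT tumours. B and plasma cell markers (10) ranged from 1347 to 16914 in SKO tumours and from 1106 to 9674 in WT tumours, with SKO replicate 3 the highest. Hepatocyte markers (6) summed to 974080 to 1723700 in SKO tumours and 1463900 to 1931300 in WT tumours.

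**Figure D4:**
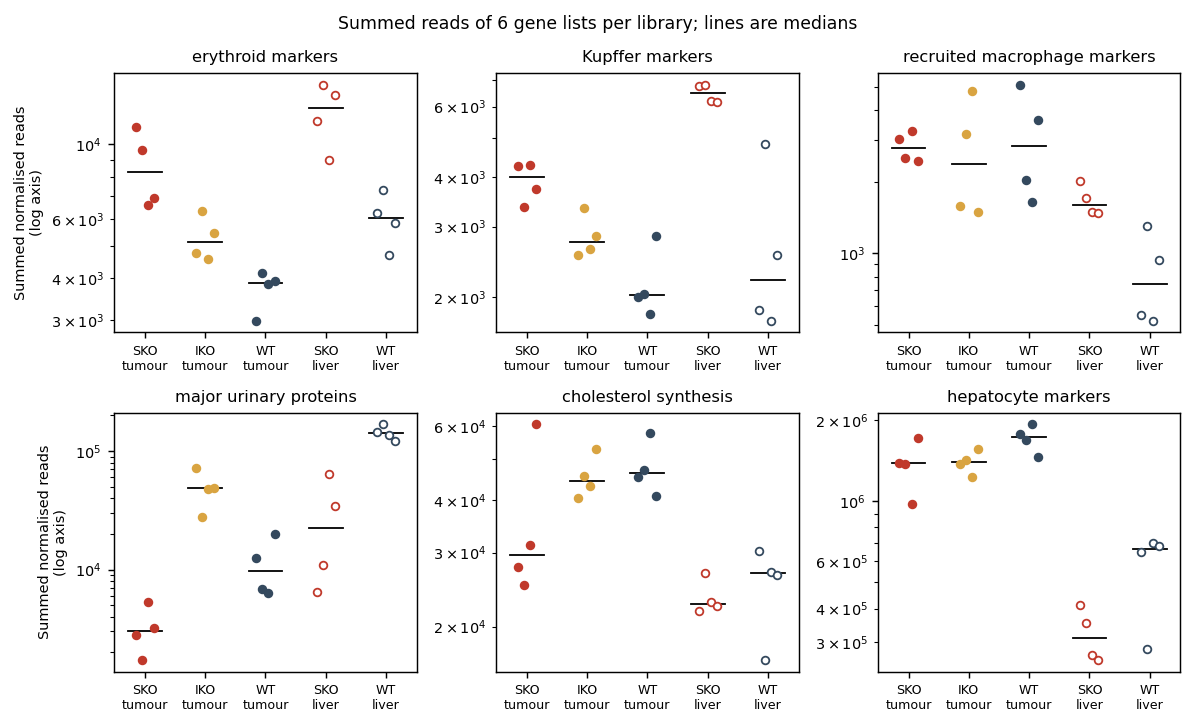
Summed normalised reads (log axis) of 6 gene lists in each library of SKO, IKO and WT tumours (filled) and SKO and WT non-tumour liver (open), with lines at the median of 4 libraries. SKO tumours lie above WT tumours for erythroid and Kupffer markers and below them for major urinary proteins, and the groups overlap for the other 3 lists.

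Among transcripts of the pathway that SHP2 serves, the calls were Ptpn11, the targeted gene, and Pebp1. Among 22 adaptors and receptors that work with SHP2, Ptpn11 alone fell and none rose (median 0.04). Over all genes 0.17% fell and 0.278% rose. The adaptors Gab1 and Grb2 differed by 0.18 ± 0.14 and 0.052 ± 0.12 (adjusted p = 0.675 and 0.919), and Ptpn6, which encodes the related phosphatase SHP1 of blood cells, by 0.43 ± 0.18 (adjusted p = 0.395). Fgfr4, the hepatocyte receptor for FGF15, had 183, 89.8, 107 and 129 in SKO tumours and 258, 280.3, 195 and 191 in WT tumours; these did not overlap, but the difference of −0.76 ± 0.19 was not called (adjusted p = 0.11). Of the 16 genes of the RAF-MEK-ERK cascade Pebp1 alone rose and none fell (0.278% of all genes rose). Map2k1 (MEK1) differed by −0.056 ± 0.12 and Mapk3 (ERK1) by −0.041 ± 0.14 (adjusted p = 0.913 and 0.946).

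Genes that ERK induces showed no call, 0 of 21 (median −0.15, with 6 positive and 15 negative). Dusp6, the ERK phosphatase that ERK itself induces, had 76.8, 80.3, 47.4 and 76.95 in SKO tumours and 42.9, 137, 99.2 and 63.9 in WT tumours (−0.15 ± 0.25, adjusted p = 0.871). The groups overlapped and WT tumours were the more spread. Spry4, a feedback inhibitor of RAS signalling, had 36.4, 40.95, 23.7 and 26.2 in SKO tumours and 65.96, 46.05, 60.8 and 21.7 in WT tumours (−0.35 ± 0.21, adjusted p = 0.574). Ccnd1 (cyclin D1) and Phlda1, taken as the members of highest mean, differed by 0.16 ± 0.24 and −0.030 ± 0.37 (adjusted p = 0.858 and 0.987). At these standard errors the test cannot tell a small change of transcripts from none. Acute phase genes under STAT3 had 0 calls of 25, with a median of −0.17 that became 0.04 after quantile normalization; ceruloplasmin (Cp) and fibrinogen beta (Fgb) differed by −0.12 ± 0.20 and −0.18 ± 0.32.

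Cholesterol synthesis had 1 fall and no rise among 24 measured genes (0.17% of all genes fell), with 23 of 24 differences negative and a median of −0.55. Hmgcs1, the cytosolic synthase that makes HMG-CoA, fell to 250.5, 249, 542 and 802 normalised reads in SKO tumours, against 1054, 1927, 2915 and 1267 in WT tumours (−1.95 ± 0.36, adjusted p = 0.03). SKO replicates 3 and 4 lay between the other SKO tumours and the WT tumours. Sqle, squalene epoxidase, had 189.9, 191, 369 and 486 in SKO tumours and 597, 494, 658 and 405 in WT tumours (−0.83 ± 0.25, adjusted p = 0.212). The regulator Srebf2 differed by −0.50 ± 0.26 (adjusted p = 0.506), and the sterol carrier Stard4 was the only member with a positive difference (0.27 ± 0.29, adjusted p = 0.787). Sqle, Srebf2 and Stard4 were named after their values were seen.

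In non-tumour liver Hmgcs1 had 476, 496, 599.96 and 320.5 in SKO and 805, 189.98, 587 and 894 in WT, which overlapped, and IKO tumours held 348, 322, 492 and 514, among the SKO tumour values. The tumour difference minus the non-tumour one was −1.74 ± 0.53 (adjusted p = 0.264, unadjusted p = 0.00328), which did not pass. The call of Hmgcs1 held in 3 of the 8 fits without 1 library, with adjusted p up to 0.118 without SKO tumour replicate 1; it was also lost without SKO replicates 2 and 3 and WT replicates 2 and 3, and when only the 8 libraries estimated the spread (adjusted p = 0.129). Summed over the list, SKO tumours ranged from 25106 to 60554 and WT tumours from 40966 to 57674.

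The Hmgcs1 promoter is shown because this was the 1 gene of its pathway to be called. Capitals mark CACCCCAC, the core of a known sterol regulatory element, searched on both strands in the same window as for the globins (RefSeq, GRCm38.p6).
Hmgcs1, chr13:119690101-119690400, plus strand: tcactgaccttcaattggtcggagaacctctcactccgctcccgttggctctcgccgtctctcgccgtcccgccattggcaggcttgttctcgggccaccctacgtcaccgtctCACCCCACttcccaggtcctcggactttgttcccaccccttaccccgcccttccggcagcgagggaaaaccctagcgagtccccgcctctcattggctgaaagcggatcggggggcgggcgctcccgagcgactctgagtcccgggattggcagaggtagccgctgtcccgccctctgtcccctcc
The motif stood in 942 of 32851 promoters of that length (2.87%), so a match alone sets no gene apart.

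Lipogenesis and lipid droplet genes had 0 calls of 33, with 26 negative differences and a median of −0.44. Scd1, stearoyl-CoA desaturase, and Plin2, a lipid droplet coat protein, differed by −0.56 ± 0.34 and 0.17 ± 0.26 (adjusted p = 0.591 and 0.855). Thrsp, a regulator of fatty acid synthesis, had 1515, 1285, 2017 and 448 in SKO tumours and 5809, 5429.8, 4479 and 3990.2 in WT tumours without overlap (−2.05 ± 0.47, adjusted p = 0.0858, not called), and fatty acid synthase, Fasn, had 1895, 2838, 1738 and 1364 in SKO tumours and 2273, 3722, 4384 and 3640.4 in WT tumours (−0.84 ± 0.23, adjusted p = 0.158, not called). Both were named after their values were seen. Periportal genes had 1 fall among 25 (0.17% of all genes fell), Sds, which lies near Ptpn11 as described. Xenobiotic genes had 1 fall among 28 (0.17% of all genes fell), the cytochrome Cyp2d22. It had 1122, 1306, 1033 and 1176 in SKO tumours and 1766, 1887, 1592 and 1937 in WT tumours (−0.62 ± 0.12, adjusted p = 0.0382). That call held in none of the 8 fits without 1 library (adjusted p up to 0.125 without SKO tumour replicate 1) and was lost after quantile normalization.

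Major urinary proteins, pheromone carriers that male liver secretes, had 0 calls of 18 in tumours although 17 differences were negative and none positive (median −0.57), Mup2 having 0 reads in all 8 tumours; in non-tumour liver 14 of 18 fell (median −1.98; 1.88% of all genes fell there). Mup3 had 1871, 742, 2361 and 2025 in SKO tumours and 9584, 3404, 2987 and 14188 in WT tumours (−1.91 ± 0.50, adjusted p = 0.142). Mup20 had 899.6, 885, 2618 and 1008 in SKO tumours and 1904, 3332, 3285 and 3519.8 in WT tumours (−1.26 ± 0.31, adjusted p = 0.122). The summed level of the family was 1725 to 5357 in SKO tumours, 27806 to 72447 in IKO tumours and 6372 to 19792 in WT tumours, and 6501 to 63462 in SKO and 122780 to 168350 in WT non-tumour liver. The groups of tumours did not overlap in the sum, and the spread within each was several-fold. The family is made of near-identical copies whose reads may be assigned to one another. Against IKO tumours Mup3 differed by −4.301 ± 0.50 (adjusted p = 0.000751) and Mup20 by −1.98 ± 0.31 (adjusted p = 0.00565).

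The other lists held no call in tumours. Proliferation genes (32 measured) had a median of −0.15, with 6 positive and 25 negative differences. Tubb5 and Ccna2 (cyclin A2) differed by −0.063 ± 0.19 and −0.28 ± 0.22. Oncofetal and tumour markers (27) had a median of −0.15; alpha-fetoprotein, Afp, had 304, 266, 582 and 411 in SKO tumours and 85.9, 1229, 854 and 862 in WT tumours (−0.52 ± 0.56), and glypican 3, Gpc3, had 673, 543, 332 and 854 in SKO tumours and 1101, 847, 1056 and 1198 in WT tumours (−0.84 ± 0.47). Afp and Gpc3 were named as the classical markers of liver cancer after their values were seen. WNT targets and pericentral genes (26) had a median of −0.13 and no gene below an unadjusted p of 0.05; Aldh1a1 and Cyp1a2 differed by −0.49 ± 0.27 and 0.86 ± 0.63. Interferon-stimulated genes (29) had a median of 0.30 with 23 positive, and Ifi27 and Irf9 differed by 0.28 ± 0.20 and 0.22 ± 0.12. Antigen presentation genes (21) had a median of 0.22, and H2-K1 and B2m differed by 0.18 ± 0.19 and 0.10 ± 0.15. For p53 targets (24) Cdkn1a (p21) and Btg2 differed by −0.36 ± 0.36 and −0.74 ± 0.21, and for NRF2 targets (29), whose median of −0.12 became 0.00 after quantile normalization, Gstm1 and Ephx1 differed by 0.12 ± 0.60 and −0.14 ± 0.27. All adjusted p of the genes named in this paragraph lay above 0.05, from 0.191 for Btg2 to 0.967 for Gstm1.

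Further lists without a call held male-biased (21 measured) and female-biased liver genes (17), the growth hormone axis (15), the amino acid response (20), NF-kB targets (17), fatty acid oxidation (26), bile acid genes (24), glycolysis (21), hepatocyte transcription factors (21), complement and coagulation (34) and endoplasmic reticulum chaperones (19). Their medians lay between −0.23 for male-biased and 0.29 for female-biased genes. For the female-biased list, with 11 positive and 6 negative differences, the summed level leaned the other way. It was 8760 to 21463 normalised reads in SKO tumours and 18644 to 25304 in WT tumours, with overlap. The male-biased sum was 14835 to 42378 in SKO tumours and 43003 to 61595 in WT tumours. Serpina1e, an alpha-1-antitrypsin of male liver, differed by −1.17 ± 0.44 and Cyp2a4, a cytochrome of female liver, by −0.71 ± 0.38. The transcription factors Hnf4a and Xbp1 differed by −0.072 ± 0.13 and −0.38 ± 0.18. In all, 8 of the 40 lists held a called gene, 31 did not and 1 was not measured.

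**Figure D5:**
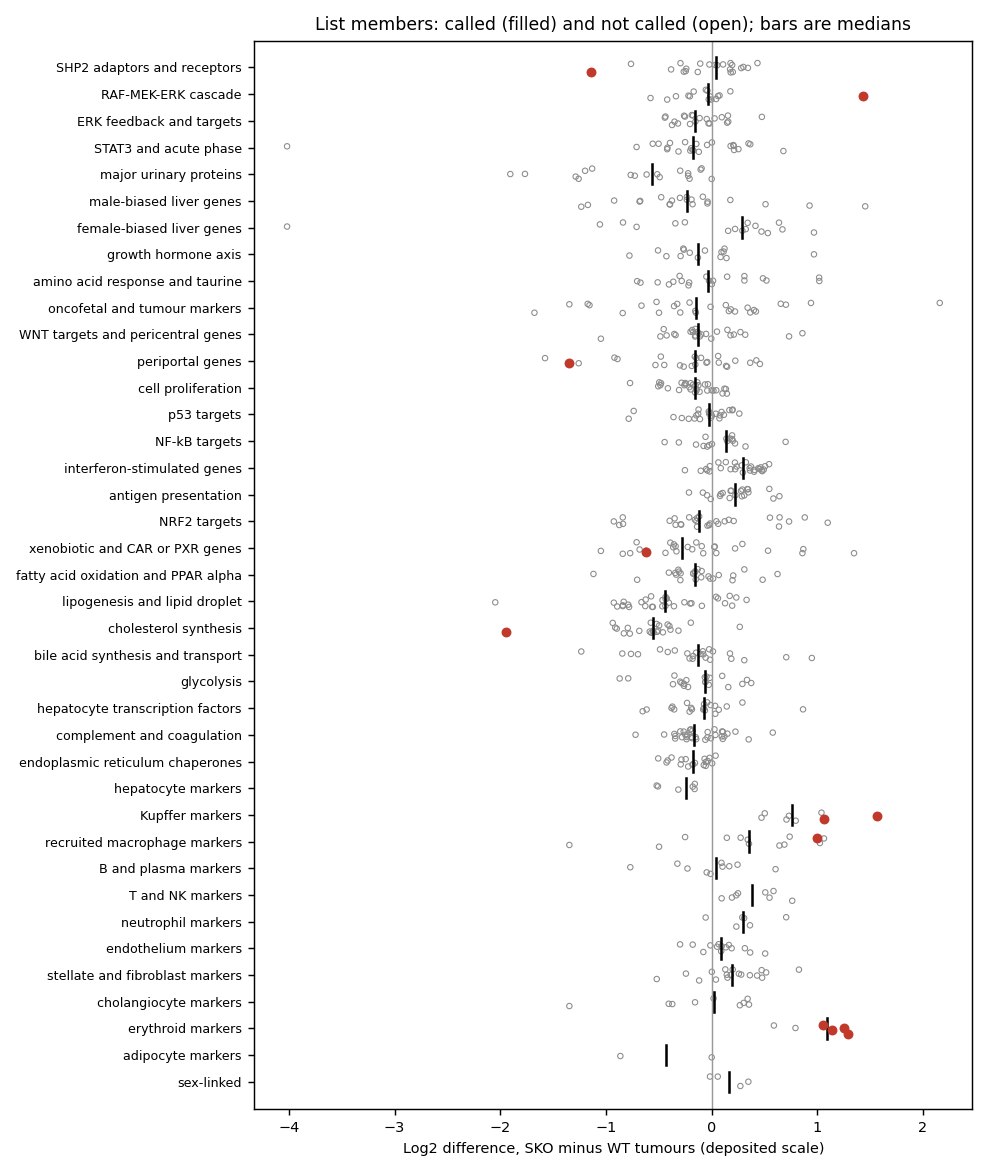
Log2 difference, SKO minus WT tumours, of each measured member of 39 gene lists, called genes filled and others open, with a bar at the median of the list. Filled points sit to the right for erythroid, Kupffer and recruited macrophage markers and for Pebp1, and to the left for Ptpn11, Sds, Cyp2d22 and Hmgcs1.

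Whether the differences belong to tumours or to the liver of these mice as a whole was asked by setting the tumours beside non-tumour liver at 8 months. There 501 genes were called between SKO and WT (3.86%), 257 higher (1.98%) and 244 lower (1.88%). Of the 58 tumour calls 34 were also called in non-tumour liver in the same direction, 21 higher and 13 lower, which is 58.6% of the tumour calls and 6.79% of the non-tumour calls. The sign was shared by 54 of 58. The non-tumour libraries of both genotypes are separate from the tumour libraries, though whether they came from the same mice is not given in the sources used here. At 1 month 22 of the 58 lay apart in the tumour direction and 2 in the opposite one, where 11.7% of all genes lay apart and higher and 9.39% lower (21.1% in all). At 3 months 18 lay apart in the tumour direction and 0 in the opposite one, with 5.02% of all genes higher and 3.85% lower (8.87%); these counts include the SKO replicate 2 that held Ptpn11 at the WT level. At 5 months 26 lay apart in the tumour direction and 1 in the opposite one, with 5.72% higher and 7.65% lower (13.4%). For the non-tumour liver sampled at 8 months the numbers were 35 and 0, with 5.4% higher and 5.83% lower (11.2%).

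A test of the difference between the tumour and the non-tumour effect called 1 gene of 12966 (0.00771%), with 1336 at an unadjusted p below 0.05. That gene was Hddc3, whose human product MESH1 is known to remove a phosphate from NADPH. It had 6.73, 9.45, 7.91 and 9.23 normalised reads in SKO tumours and 123, 62.1, 65.7 and 59.1 in WT tumours (−1.75 ± 0.24, adjusted p = 0.00431). Non-tumour liver held 10.9, 9.34, 8.81 and 8.16 in SKO and 5.32, 4.87, 8.04 and 14.7 in WT (0.092 ± 0.14, adjusted p = 0.778). The WT tumours thus stood above the SKO and IKO tumours and above SKO and WT non-tumour liver at 8 months. The difference of the effects was −1.84 ± 0.28 (adjusted p = 0.011), and limma-voom on recovered reads called 0 genes here. IKO tumours held 4.805, 19.5, 1.36 and 12.2. At 1 month SKO liver held 8.52, 5.32, 4.51 and 2.55 and WT liver 15.8, 30.4, 50.8 and 75.6, without overlap. At 3 months the range was 5.496 to 9.85 in SKO and 1.15 to 14.8 in WT liver, and at 5 months 4.19 to 13.8 in SKO and 12.3 to 62.8 in WT liver, both with overlap.

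IKO tumours come from the other knockout of the sequencing group, and SKO tumours were also set against them; the WT tumours entered that fit only through the shared estimate of the spread. SKO and IKO tumours differed in 250 genes (1.93%), 82 higher (0.632%) and 168 lower (1.3%) in SKO tumours. Of the 58 genes, 33 were also called against IKO tumours in the same direction, 22 higher and 11 lower; the comparisons share the SKO libraries and the estimate of the spread, so the count does not stand on separate data. Among them were Gm4841 (5.17 ± 0.37), Dnah2 (1.92 ± 0.22), Adamts13 (1.92 ± 0.21), Akr1b7 (1.47 ± 0.26) and Pebp1 (0.94 ± 0.16) on the higher side, and Sds (−1.87 ± 0.24), Serpina12 (−1.33 ± 0.26), Hyal1 (−1.18 ± 0.21) and Pgap6 (−1.02 ± 0.21) on the lower side. Other genes gave small differences between SKO and IKO tumours. Hmgcs1 differed by −0.0061 ± 0.36 between SKO and IKO tumours, Hddc3 by 0.034 ± 0.24, Ide by −0.087 ± 0.18, Wdfy1 by −0.035 ± 0.16, Gucy2c by 0.10 ± 0.16 and Vsig4 by 0.19 ± 0.21, all with adjusted p of at least 0.707. For Ide the values were 259, 266, 199.9 and 245 in IKO tumours, and for Wdfy1 147, 218, 208 and 259, beside the SKO and WT values given above.

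The remaining calls were of smaller size or few reads. Tmem170, a membrane protein, had 63.3, 33.1, 38.2 and 55.4 in SKO tumours and 4.602, 11.01, 11.2 and 10.9 in WT tumours (1.21 ± 0.18, adjusted p = 0.00771). AB124611 had 80.8, 72.5, 61.9 and 69.3 in SKO tumours and 26.1, 20.02, 22.3 and 33.8 in WT tumours (0.97 ± 0.14, adjusted p = 0.00771). Atp8a1, a flippase of membrane phospholipids, had 92.9, 91.4, 92.2 and 46.2 in SKO tumours and 38.3, 19.02, 23.6 and 30.2 in WT tumours (1.02 ± 0.19). Syn1 had 39.1, 33.1, 23.7 and 18.5 in SKO tumours and 6.14, 5.01, 3.72 and 12.1 in WT tumours (0.93 ± 0.17). Arsk, a lysosomal sulfatase, rose by 0.87 ± 0.14, Csrp1, an actin-associated LIM protein, by 0.78 ± 0.16, Ift46, a carrier of cilium assembly, by 0.72 ± 0.13, Ciapin1, a factor of iron-sulphur cluster assembly, by 0.69 ± 0.14, and Fhip2a by 0.68 ± 0.13. Tmem170 and AB124611 were called in all 8 fits without 1 library, Arsk in 4, Atp8a1, Syn1 and Ift46 in 2, Ciapin1 and Fhip2a in 1 and Csrp1 in none. The highest adjusted p of these were 0.0628 for Arsk, 0.116 for Syn1, 0.111 for Ift46 and 0.15 for Ciapin1 without WT tumour replicate 3, 0.121 for Atp8a1 without SKO tumour replicate 1, and 0.111 for Fhip2a and 0.146 for Csrp1 without SKO tumour replicate 3.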

How the data were processed

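RNA was sequenced on an Illumina HiSeq2000 after MAPS preparation, per the labels' protocols, which counts tags at 3′ ends of polyadenylated RNA. Per the submitters' processing notes the tools were STAR 2.7.10a, HTSeq 2.0.2 and DESeq2 1.32.0 with GRCm38/mm10. The authors deposited log2-scale values after a variance-stabilising transform for 12966 genes and 105 libraries. A value of 3.8289 was the floor in all libraries and means 0 reads; inverting the transform returned numbers of reads within 0.05 of a whole number for 100.0% of values (99.99% in the lowest library). Normalised reads are these reads over the library's size factor, and errors from counting alone are lower bounds.

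Tests used the deposited values in limma 3.58.1 (R 4.3.3), with 1 mean per group, moderation with a trend and Benjamini-Hochberg adjustment over all 12966 genes; adjusted p in the text come from it unless another fit is named, and differences are given ± SE. SKO and WT tumours, and SKO and IKO tumours, were compared in the 12 tumour libraries of sequencing group 1, non-tumour liver in its 12 libraries, and the difference of the effects in all 24. Genes named are Ptpn11, the 12 largest rises and 12 largest falls, the largest changes shared against IKO tumours, genes near Ptpn11, and for each list up to 4 called members or the 2 of highest mean; others are said to be chosen after their values were seen or are the remaining called genes. Some genes that this takes are not reported here. The members and lists were chosen with earlier results of these data known. Positions are from GENCODE M21 and promoters from RefSeq (GRCm38.p6). The fit was tested on simulated data. Alternatives were all 15 groups, only the 8 libraries, no trend, library weights, a minimum mean of 5, quantile normalization, a replicate block, limma-voom on recovered reads and leaving out 1 library.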

Additional observations from a re-analysis of the deposited data

Results flagged for a closer look

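Among 148 genes, 14 of 296 sets of 4 tumour libraries held a library far from the other 3 by Dixon's ratio of gap to range at the 95% level, and chance marks about 1 in 20. Among SKO tumours the ratio was 0.974 for Atp8a1 (replicate 4 lowest), 0.907 for Ifi27 (replicate 4 highest), 0.881 for Mup20 (replicate 3 highest), 0.909 for Dusp6 (replicate 3 lowest) and 0.945 for Ighm, an immunoglobulin heavy chain (replicate 3 highest). Among WT tumours it was 0.864 for Hddc3, 0.838 for Krt18, 0.868 for Krt8 and 1 for Gm4841 (replicate 1 highest in each; for Gm4841 the only read of the group), and 0.963 for Tmem170, 0.887 for Mup20 and 0.853 for Afp (replicate 1 lowest in each). It was also 0.849 for Timd4 (replicate 3 highest) and 0.885 for Tnfaip2 (replicate 2 highest) in WT tumours.

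The effect of SKO on Hddc3 differed between tumours and non-tumour liver by −1.84 on the log2 scale (limma, adjusted p = 0.011), by a test of that difference.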

How the results depend on the processing

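None of the 58 genes called between SKO and WT tumours reversed under any alternative run, but after quantile normalization the median log2 difference changed sign for the STAT3 and acute phase list (0.04, against −0.17), the NRF2 list (0.0017, against −0.12), the RAF-MEK-ERK list (0.0010, against −0.03) and the cholangiocyte list (−0.01, against 0.02). Between SKO and WT tumours 223 genes were called when all 15 groups estimated the spread (88 higher, 135 lower), 33 when only the 8 libraries did and 22 to 64 without 1 library. The difference between tumours and non-tumour liver gave 4 calls with all 15 groups, 2 with a minimum mean of 5, 2 after quantile normalization, 0 with limma-voom on recovered reads and 1 to 9 without 1 library. SKO against IKO tumours gave 729 with all 15 groups and 94 to 407 without 1 library, and non-tumour liver 139 to 823 without 1 library. With the replicate number as a block the counts were 39, 3, 237 and 427 in that order of comparisons. Deviations of SKO and WT tumours with the same number correlated at −0.155 to 0.0692, and none correlated best with its own number, so the numbers do not pair these libraries. Within SKO, tumour and non-tumour libraries of the same number correlated at 0.13, 0.138 and 0.154 for numbers 2 to 4, each best with its own number, and at 0.0099 for number 1; within WT the range was −0.064 to 0.0511. These numbers were not taken as pairs either, and whether they share a mouse is not given in the sources used here. The test of the difference between tumour and non-tumour effects therefore treated its libraries as separate. If some of them share a mouse, that was not modelled. The other alternatives gave 48 to 73 calls between SKO and WT tumours. Of the 58 genes, 17 were called in every fit that held them; 2 genes, Dnah2 (one of the 17) and Rpl10-ps2, were removed by the minimum mean of 5. SKO tumours were sequenced less deeply than WT tumours, and genes with few reads limit what can be called.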
